A study of Mus musculus with 98 samples.

Results

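The end structures described here are the far blunt and 3' overhang ends at a zinc finger nuclease break in mouse pre-B cells. They were chosen by their measured values in the tables of the zinc finger break: at least 2 reads, an overhang of 0 nt or above, and a table position of 54 or more for the 5'-ending strand, which is 21 nt or more inside the cut. The rule found 636 structures in Lig4-/- 53BP1-/- cells and 500 in Lig4-/- cells, 1136 of the 2818 structures in these 2 tables and of the 12741 in the series. Of the 889 distinct structures, 247 were listed with at least 2 reads in both tables.

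HCoDES, hairpin capture of DNA end structures, uses a single-stranded DNA ligase to close a broken end by joining its strands, and sequencing of the amplified product shows where each strand stopped. Both groups were Abelson-transformed pre-B cells, that is, immature B cells made permanent by a viral kinase, and the series design describes them as arrested in G1. The Lig4-/- 53BP1-/- group was line C and carried the label ZF 12, and the Lig4-/- group was line B and carried the label ZF 11. Both lacked DNA ligase IV, so no group with that ligase entered the comparison, and the labels give neither the time after cutting nor the site of this break.

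A zinc finger nuclease couples a designed DNA-binding protein to the cutting domain of FokI, which leaves short 5' overhangs. Nucleases that resect a break degrade the 5'-ending strand and leave the 3'-ending strand as a single-stranded tail; an end becomes blunt again when that tail is trimmed back to the same place. Ligase IV closes breaks by non-homologous end joining, and 53BP1 is a chromatin-bound protein known to protect ends from resection.

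Each table pooled 3 libraries and each genotype had 1 table, so no spread between libraries or lines could be computed, no test was made and no p-value is given. The table of Lig4-/- 53BP1-/- cells held 556034 reads in structures with 2 reads or more, and that of Lig4-/- cells held 623350. Intervals are exact Clopper-Pearson 95% intervals and cover counting error only, since PCR reads are not independent molecules. Genotype cannot be told apart from cell line, from ZF number, from sequencing run (set 7 for Lig4-/- 53BP1-/- line C, set 8 for Lig4-/- line B) or from the mean insert length recorded by the authors (284 for each Lig4-/- 53BP1-/- library and 403 for each Lig4-/- library, with no unit). Loss is counted from the most abundant 4-nt 5' overhang of Lig4-/- cells, which stopped at positions 33 and 37 and held 29134 reads. In Lig4-/- 53BP1-/- cells the most abundant 4-nt 5' overhang lay at positions 39 and 43 with 4291 reads, so the origin is a choice made after seeing the data, and another one would shift every loss alike.

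Far blunt and 3' ends held a larger share of reads in Lig4-/- 53BP1-/- cells, yet they were a smaller share of the far ends there. They took 24.5% of all reads in Lig4-/- 53BP1-/- cells (135998 reads, interval 24.3 to 24.6) and 13.4% in Lig4-/- cells (83686 reads, interval 13.3 to 13.5), a difference of 11.03 points. Ends of any kind that had lost 21 nt or more were 80.9% of reads in Lig4-/- 53BP1-/- cells and 18.3% in Lig4-/- cells. Among those far ends, blunt and 3' ends made up 30.2% of reads in Lig4-/- 53BP1-/- cells (30.1 to 30.4) and 73.3% in Lig4-/- cells (73.0 to 73.5). The rest of the far reads ended in 5' overhangs, where the 3'-ending strand stopped further inside than the 5'-ending one, and these were 56.4% of all reads in Lig4-/- 53BP1-/- cells against 4.90% in Lig4-/- cells.

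That difference of 11.03 points depended on where the lines of the rule were drawn. With position 44 in place of 54, the shares were 25.8% in Lig4-/- 53BP1-/- cells and 26.8% in Lig4-/- cells, and with each structure counted once they were 39.0% of structures in Lig4-/- 53BP1-/- cells and 42.1% in Lig4-/- cells. Both differences have the opposite sign. Counting only overhangs of 2 nt or more left 11.9% in Lig4-/- 53BP1-/- cells and 11.4% in Lig4-/- cells. Just inside the position limit, structures with 21 nt lost held 0.0354% of reads in Lig4-/- 53BP1-/- cells and 0.374% in Lig4-/- cells, and just outside it, those with 20 nt lost held 0.0538% in Lig4-/- 53BP1-/- cells and 0.578% in Lig4-/- cells. At the other edge of the rule, far blunt ends held 6.94% of reads in Lig4-/- 53BP1-/- cells and 0.815% in Lig4-/- cells, and the far 5' overhangs of 1 nt that it leaves out held 4.41% in Lig4-/- 53BP1-/- cells and 0.358% in Lig4-/- cells.

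**Figure D1:**
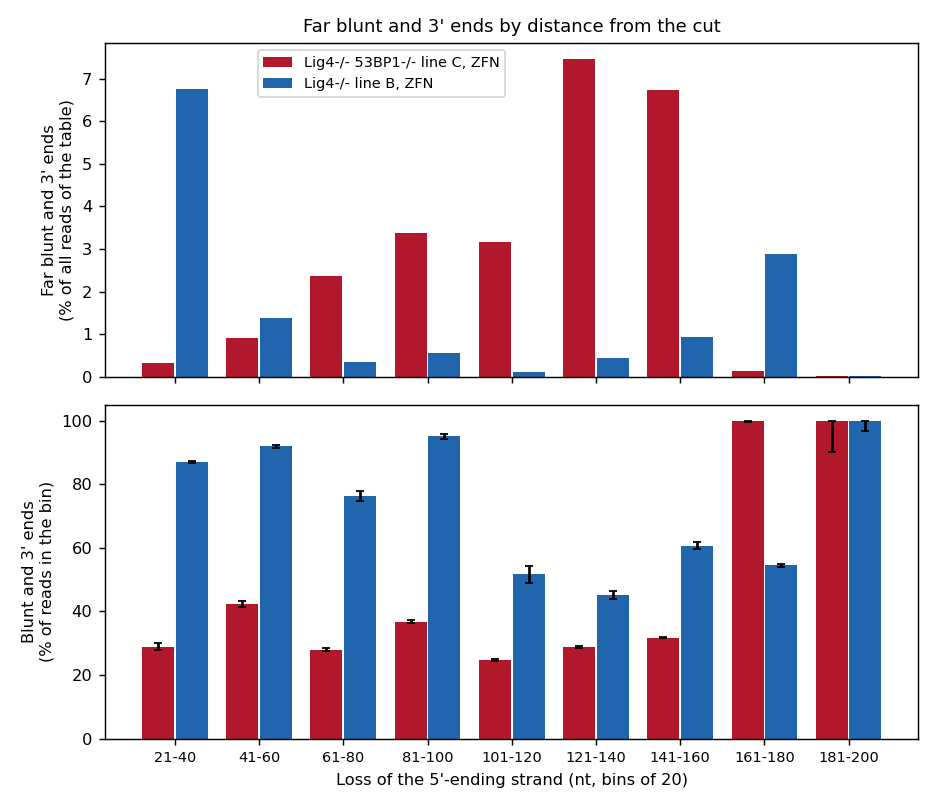
Far blunt and 3' ends by loss of the 5'-ending strand in bins of 20 nt, as percent of all reads of the table (top) and as percent of the reads in the bin (bottom; error bars are exact Clopper-Pearson 95% intervals). Lig4-/- 53BP1-/- cells have their tallest bar at 121 to 140 nt (7.47%) and Lig4-/- cells at 21 to 40 nt (6.77%), and in 7 of the 9 bins the lower panel stands higher for Lig4-/- cells.

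The 2 lines placed these ends at different distances from the cut. In Lig4-/- 53BP1-/- cells the median read had lost 131 nt from the 5'-ending strand (quartiles 96 and 142) and in Lig4-/- cells 40 nt (quartiles 25 and 155). Ends with 21 to 40 nt lost were 1.28% of the far blunt and 3' reads in Lig4-/- 53BP1-/- cells and 50.4% in Lig4-/- cells. Ends with 121 to 160 nt lost were 58.0% in Lig4-/- 53BP1-/- cells and 10.1% in Lig4-/- cells. The stretch between, 41 to 120 nt, held 40.1% in Lig4-/- 53BP1-/- cells and 17.8% in Lig4-/- cells. When each structure counted once, the medians were 109.5 nt in Lig4-/- 53BP1-/- cells and 103 nt in Lig4-/- cells, so the medians lay closer together over structures than over reads.

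At the zinc finger break, Lig4-/- cells also had a second group of ends at the far edge of the measured region that Lig4-/- 53BP1-/- cells nearly lacked. Ends with 161 to 185 nt lost held 0.531% of far blunt and 3' reads in Lig4-/- 53BP1-/- cells (722 reads) and 21.6% in Lig4-/- cells (18101 reads). Only 2 of these structures reached 100 reads in Lig4-/- 53BP1-/- cells, against 8 in Lig4-/- cells, and the most abundant of the 8 held 27.0% of that zone's reads. In the same zone Lig4-/- cells had 15037 reads of 5' overhangs and Lig4-/- 53BP1-/- cells had none. This group of ends was not found in every table of Lig4-/- cells: from table position 194 on, where this zone starts, blunt and 3' ends held 0.130% of all reads in Lig4-/- 53BP1-/- cells and 2.90% in Lig4-/- line B at the zinc finger break, but 0.00959% (60 reads) in the same line B and 1.57% in line A at the Cas9 break. Both Cas9 tables of Lig4-/- cells had no reads of 5' overhangs from that position on, like Lig4-/- 53BP1-/- cells at the zinc finger break. The zinc finger tables listed positions up to 217 in Lig4-/- 53BP1-/- cells and 218 in Lig4-/- cells. The highest position of a structure with 100 reads or more was 206 in Lig4-/- 53BP1-/- cells and 213 in Lig4-/- cells. The highest listed position cannot show whether ends at this edge were equally detectable in both, which was not tested. The mean insert length recorded for the libraries moved with this zone (284 in Lig4-/- 53BP1-/- libraries, 403 in Lig4-/- libraries); its part in the result was not tested. Without losses above 160 nt, the far blunt and 3' share was 24.4% in Lig4-/- 53BP1-/- cells and 11.1% in Lig4-/- cells.

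The lower share of blunt and 3' ends among far ends in Lig4-/- 53BP1-/- cells was also seen at matched distances. From 21 to 160 nt, each bin of 20 nt had a lower share in Lig4-/- 53BP1-/- cells, between 24.8% and 42.4%, than in Lig4-/- cells, between 45.1% and 95.1%. At 21 to 40 nt the shares were 29.0% in Lig4-/- 53BP1-/- cells and 87.1% in Lig4-/- cells, and at 81 to 100 nt they were 36.8% in Lig4-/- 53BP1-/- cells and 95.1% in Lig4-/- cells. Some shares of Lig4-/- cells rest on few abundant structures. At 121 to 160 nt, 9 far blunt and 3' structures reached 100 reads there, against 88 in Lig4-/- 53BP1-/- cells. The bin of 101 to 120 nt held only 1379 far reads in Lig4-/- cells. The bins beyond 160 nt are of little use for this comparison, since Lig4-/- 53BP1-/- cells had only the 722 reads there, all of them 3' overhangs.

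**Figure D2:**
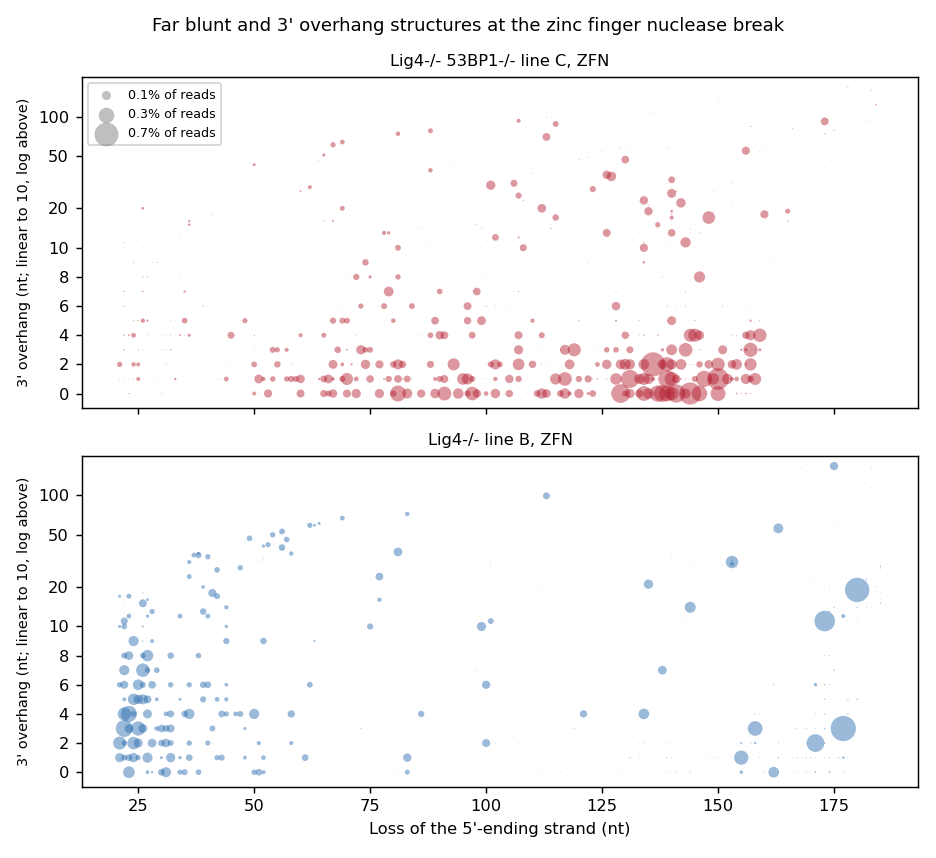
Each far blunt or 3' structure at the loss of its 5'-ending strand (horizontal, nt) and its 3' overhang (vertical, nt, linear to 10 and logarithmic above), with circle area proportional to its percent of all reads, for Lig4-/- 53BP1-/- line C above Lig4-/- line B. The large circles of Lig4-/- 53BP1-/- cells lie at overhangs of 0 to 2 nt and losses near 130 to 150 nt, and those of Lig4-/- cells lie mostly below 40 nt and beyond 150 nt.

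Over the whole measured region, the far blunt and 3' ends of Lig4-/- 53BP1-/- cells held more blunt ends and fewer long tails, though not in every zone of distance. Blunt ends, with both strands stopping at the same base pair, were 28.4% of these reads in Lig4-/- 53BP1-/- cells (28.1 to 28.6) and 6.07% in Lig4-/- cells (5.91 to 6.24). Overhangs of 1 to 4 nt were the main class in both lines, at 54.4% in Lig4-/- 53BP1-/- cells and 47.2% in Lig4-/- cells. Overhangs of 5 to 9 nt were 6.27% in Lig4-/- 53BP1-/- cells and 19.1% in Lig4-/- cells. Overhangs of 10 nt or more were 10.98% in Lig4-/- 53BP1-/- cells (14938 reads, 10.8 to 11.2) and 27.6% in Lig4-/- cells (23081 reads, 27.3 to 27.9). As shares of all reads, however, overhangs of 20 nt or more were close in the 2 tables, 1.56% in Lig4-/- 53BP1-/- cells and 1.44% in Lig4-/- cells, while those of 10 to 19 nt were 1.12% in Lig4-/- 53BP1-/- cells and 2.26% in Lig4-/- cells.

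The most common overhang length differed as well. In Lig4-/- 53BP1-/- cells the share of far blunt and 3' reads stepped down from 28.4% at 0 nt over 23.2% at 1 nt and 17.8% at 2 nt to 6.97% at 3 nt. In Lig4-/- cells it was 6.07% at 0 nt, 9.01% at 1 nt, 10.6% at 2 nt and 15.9% at 3 nt, the most common length, followed by 11.6% at 4 nt. Among the overhangs proper, leaving blunt ends aside, the median tail was 2 nt in Lig4-/- 53BP1-/- cells and 4 nt in Lig4-/- cells. Both tables had a longest listed overhang of 167 nt.

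**Figure D3:**
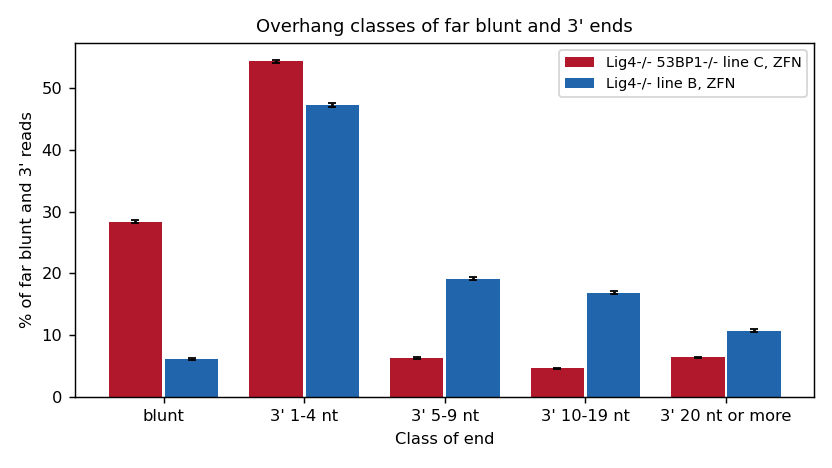
Percent of far blunt and 3' reads in each class of end, for Lig4-/- 53BP1-/- line C (left bar of each pair) and Lig4-/- line B (right bar); error bars are exact Clopper-Pearson 95% intervals. Blunt ends stand at 28.4% in Lig4-/- 53BP1-/- cells against 6.07% in Lig4-/- cells, and the classes of 5 nt and longer are lower in Lig4-/- 53BP1-/- cells.

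The higher share of blunt ends in Lig4-/- 53BP1-/- cells was present in the 2 middle zones of distance and turned round in the zones nearest to and farthest from the cut. Within 41 to 120 nt, blunt ends were 29.3% of the far blunt and 3' reads in Lig4-/- 53BP1-/- cells and 6.19% in Lig4-/- cells, and within 121 to 160 nt they were 28.6% in Lig4-/- 53BP1-/- cells and 1.77% in Lig4-/- cells. Within 21 to 40 nt the order was the other way round, 1.32% of 1738 reads in Lig4-/- 53BP1-/- cells against 7.24% of 42183 reads in Lig4-/- cells. In the zone beyond 160 nt, none of the 722 reads of Lig4-/- 53BP1-/- cells was blunt, against 5.26% of the reads of Lig4-/- cells. Overhangs of 20 nt or more there were 73.3% in Lig4-/- 53BP1-/- cells and 7.67% in Lig4-/- cells. Those of 10 to 19 nt were 26.2% in Lig4-/- 53BP1-/- cells and 44.3% in Lig4-/- cells. However, 1 structure with a 92-nt overhang held 60.0% of the 722 reads, so the 73.3% rests mostly on it.

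The lower share of long tails in Lig4-/- 53BP1-/- cells was likewise seen within the middle zones, but did not come from them alone. With losses limited to 160 nt, chosen after seeing the data, the difference in overhangs of 10 nt or more shrank from -16.6 to -10.3 points. The zone beyond 160 nt held 0.531% of far blunt and 3' reads in Lig4-/- 53BP1-/- cells and 21.6% in Lig4-/- cells. Within 41 to 120 nt, overhangs of 10 to 19 nt were 2.71% in Lig4-/- 53BP1-/- cells and 15.8% in Lig4-/- cells, and those of 20 nt or more were 6.90% in Lig4-/- 53BP1-/- cells and 29.3% in Lig4-/- cells. Within 121 to 160 nt, overhangs of 20 nt or more were 5.49% in Lig4-/- 53BP1-/- cells and 24.2% in Lig4-/- cells. Within 21 to 40 nt the lines were close, with overhangs of 10 to 19 nt at 5.93% in Lig4-/- 53BP1-/- cells and 6.54% in Lig4-/- cells and those of 20 nt or more at 3.34% in Lig4-/- 53BP1-/- cells and 2.76% in Lig4-/- cells.

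The 3'-ending strand, too, stopped further inside in Lig4-/- 53BP1-/- cells. Its median loss was 124 nt in Lig4-/- 53BP1-/- cells (quartiles 87 and 136) and 27 nt in Lig4-/- cells (quartiles 15 and 127). Because most overhangs were short, these values largely follow from the losses of the 5'-ending strand given above and are not a separate result. In 1.60% of far blunt and 3' reads of Lig4-/- 53BP1-/- cells and in 41.8% of those of Lig4-/- cells the 3'-ending strand had lost under 21 nt although the other strand was 21 nt or more short of the cut. Ends whose 3'-ending strand still stopped within 10 nt of its cut made up 0.724% of far blunt and 3' reads in Lig4-/- 53BP1-/- cells (984 reads) and 7.07% in Lig4-/- cells (5918 reads).

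Most structures were rare and a few carried most reads. In Lig4-/- 53BP1-/- cells 229 of the 636 structures reached 100 reads and together held 97.8% of far blunt and 3' reads, and in Lig4-/- cells 151 of the 500 did and held 96.8%. Few lay between: 31 structures in Lig4-/- 53BP1-/- cells and 23 in Lig4-/- cells had 20 to 99 reads, while 376 in Lig4-/- 53BP1-/- cells and 326 in Lig4-/- cells had fewer than 20. The reads were spread over more structures in Lig4-/- 53BP1-/- cells, where 49 structures were needed to reach 50% of them, than in Lig4-/- cells, where 27 were enough. The 10 most abundant structures held 18.4% in Lig4-/- 53BP1-/- cells and 30.4% in Lig4-/- cells.

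The leading structures of Lig4-/- 53BP1-/- cells were blunt or nearly so and lay 129 to 150 nt from the cut. A 2-nt overhang at a loss of 136 nt was the most abundant, with 3978 reads in Lig4-/- 53BP1-/- cells (0.715%, interval 0.693 to 0.738) and 4 reads in Lig4-/- cells (0.000642%). A blunt end at 144 nt followed, with 3328 reads in Lig4-/- 53BP1-/- cells (0.599%) and 8 in Lig4-/- cells (0.00128%). A 1-nt overhang at 150 nt had 3179 reads in Lig4-/- 53BP1-/- cells (0.572%) and 5 in Lig4-/- cells. These also had the 3 largest positive differences in share among the structures listed in both tables, of 0.715, 0.597 and 0.571 points. Blunt ends at 129 and 141 nt came next, the one at 129 nt with 2410 reads in Lig4-/- 53BP1-/- cells against 4 in Lig4-/- cells, and the one at 141 nt with 2279 against 9.

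The leading longer tails of Lig4-/- 53BP1-/- cells lay at losses of 107 to 148 nt. The most abundant overhang of 5 to 9 nt was one of 8 nt at a loss of 146 nt (856 reads, 0.154%), that of 10 to 19 nt was one of 17 nt at 148 nt (1094 reads, 0.197%), and that of 20 nt or more was one of 35 nt at 127 nt (630 reads, 0.113%). The longest with at least 100 reads was 93 nt, at a loss of 107 nt with 116 reads, and its 3'-ending strand had lost 10 nt. None of these 4 had 2 reads or more in Lig4-/- cells.

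The leading 5 structures of Lig4-/- cells lay near the 2 ends of the region. The most abundant was a 3-nt overhang at a loss of 177 nt, with 4880 reads (0.783%, interval 0.761 to 0.805). It was followed by a 19-nt overhang at 180 nt (4531 reads, 0.727%), an 11-nt overhang at 173 nt (3245 reads, 0.521%) and a 2-nt overhang at 171 nt (2414 reads, 0.387%). None of these 4 was listed for Lig4-/- 53BP1-/- cells, whose table lists no structure under 2 reads.

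The fifth lay close to the cut, a 3-nt overhang at 22 nt, with 15 reads in Lig4-/- 53BP1-/- cells (0.00270%) and 2209 in Lig4-/- cells (0.354%). It had the most negative difference in share among the far blunt and 3' structures listed in both tables, -0.352 points. The next were a 4-nt overhang at 23 nt, with 21 reads in Lig4-/- 53BP1-/- cells and 1988 in Lig4-/- cells (-0.315 points), and a 3-nt overhang at 158 nt, with 9 reads in Lig4-/- 53BP1-/- cells and 1667 in Lig4-/- cells (-0.266 points). The most abundant blunt end of Lig4-/- cells, at 23 nt, had 10 reads in Lig4-/- 53BP1-/- cells and 1055 in Lig4-/- cells (0.169%).

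Among its longer tails, the leading 5 to 9 nt overhang was one of 7 nt at 26 nt, with 16 reads in Lig4-/- 53BP1-/- cells and 1401 in Lig4-/- cells (0.225%). A 31-nt overhang at 153 nt had 4 reads in Lig4-/- 53BP1-/- cells and 1182 in Lig4-/- cells (0.190%). The longest tail with at least 100 reads was 167 nt, at a loss of 175 nt, with 529 reads in Lig4-/- cells (0.0849%), not listed for Lig4-/- 53BP1-/- cells. Its 3'-ending strand had lost only 4 nt, so this structure is an end with nearly the whole measured region left single-stranded.

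In Lig4-/- cells many structures shared 1 stopping point of the 3'-ending strand, 15 nt inside the cut. There, 13 far blunt and 3' structures held 10254 reads, 12.3% of the far blunt and 3' reads of Lig4-/- cells. Overhangs of 2, 3, 4, 5, 6, 7, 8 and 9 nt at this point each passed 100 reads, with 1314, 2209, 1988, 1002, 882, 1401, 1008 and 119 reads in that order, so the 5'-ending strand stopped at each of 8 neighbouring positions. In Lig4-/- 53BP1-/- cells 8 such structures at the same point held 263 reads, of which the 2-nt overhang had 189. As shares of all reads, the far blunt and 3' structures at this stopping point took 0.0473% in Lig4-/- 53BP1-/- cells and 1.64% in Lig4-/- cells. Other ends whose 3'-ending strand stopped there were not counted.

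The same table position was a common stopping point in the Cas9 tables of Lig4-/- cells, where it held 2.02% of reads in line B and 0.748% in line A. The labels do not say whether the Cas9 and zinc finger tables count from the same base, so only table positions are compared here. In Lig4-/- 53BP1-/- cells the leading stopping points of the 3'-ending strand lay 130, 134, 136, 142 and 133 nt inside the cut and together held 18.3% of far blunt and 3' reads, against 34.1% for the 5 leading points of Lig4-/- cells, at 15, 170, 18, 157 and 158 nt. The stopping points of the 5'-ending strand were likewise less concentrated in Lig4-/- 53BP1-/- cells, with 19.1% in the leading 5 against 29.7% in Lig4-/- cells.

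**Figure D4:**
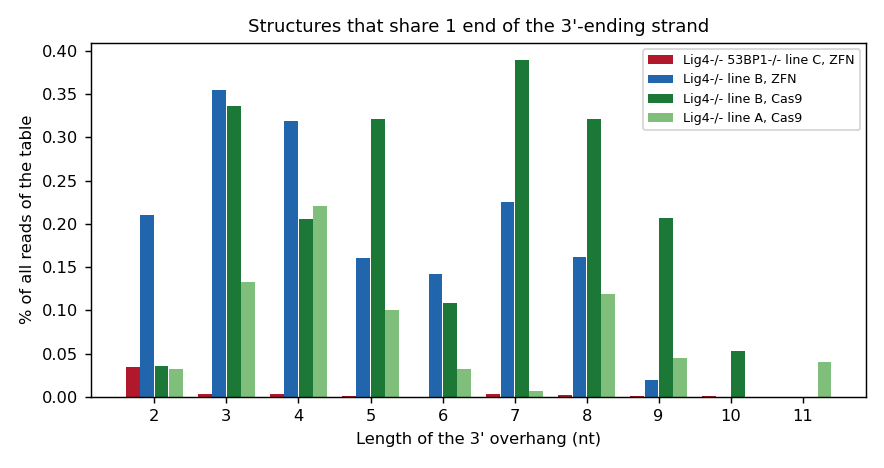
Percent of all reads in structures whose 3'-ending strand stops at table position 52, by length of the 3' overhang (nt), for the zinc finger break in Lig4-/- 53BP1-/- line C and Lig4-/- line B and for the Cas9 break in Lig4-/- lines B and A. Lig4-/- 53BP1-/- cells have 0.0340% at 2 nt and at most 0.00378% at other lengths, while Lig4-/- line B reaches 0.354% at 3 nt.

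The 247 structures listed in both tables were split between higher and lower shares. Of all 679 structures listed in both tables, 48.7% had a share at least 2-fold higher in Lig4-/- 53BP1-/- cells and 34.6% one at least 2-fold lower. Of the 247 far blunt and 3' structures, 103 (41.7%) were at least 2-fold higher and 90 (36.4%) at least 2-fold lower, so neither count stood far from that of all structures. The balance turned with the setting. Over far reads only, 85 of 247 were higher (34.4%, against 38.9% of all structures) and 144 lower. The lower share of all structures was not computed on that scale. With position 44 in the rule, 105 of 318 were higher (33.0%, against 48.7% of all structures) and 154 lower. With position 74, chosen after seeing the data, 102 of 174 were higher (58.6%, against 48.7%) and 31 lower. The median log2 ratio of the 247 was 0.16, against 0.83 for all structures. Far 5' overhangs listed in both tables were higher in 177 of 222 cases, with a median log2 ratio of 7.58.

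Within the far blunt and 3' structures the direction followed the distance from the cut. Of 73 listed in both tables at 21 to 40 nt, 1 was at least 2-fold higher in Lig4-/- 53BP1-/- cells and 59 at least 2-fold lower, with a median log2 ratio of -5.82. Of 88 at 41 to 120 nt, 43 were higher and 21 lower (median 0.83), and of 77 at 121 to 160 nt, 58 were higher and 9 lower (median 7.39). The 9 structures beyond 160 nt had 1 higher and 1 lower. Most of these ratios rest on few reads in 1 of the tables. With at least 10 reads required in both tables, only 24 structures were left, of which 3 were higher and 17 lower, and the higher ones were 12.5% of these against 28.5% of all structures under the same limit.

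The abundant structures of one line were rare in the other. Of the 247, 84 had at least 100 reads in Lig4-/- 53BP1-/- cells and under 20 in Lig4-/- cells, and 76 had under 20 in Lig4-/- 53BP1-/- cells and at least 100 in Lig4-/- cells. Only 10 had 100 reads or more in both. Of the 10, 6 lay at losses of 21 to 26 nt, and 1, a blunt end at 83 nt, was over 2-fold higher in Lig4-/- 53BP1-/- cells, with 691 reads there (0.124%) and 185 in Lig4-/- cells (0.0297%). A 1-nt overhang at the same loss had 320 reads in Lig4-/- 53BP1-/- cells (0.0576%) and 538 in Lig4-/- cells (0.0863%).

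**Figure D5:**
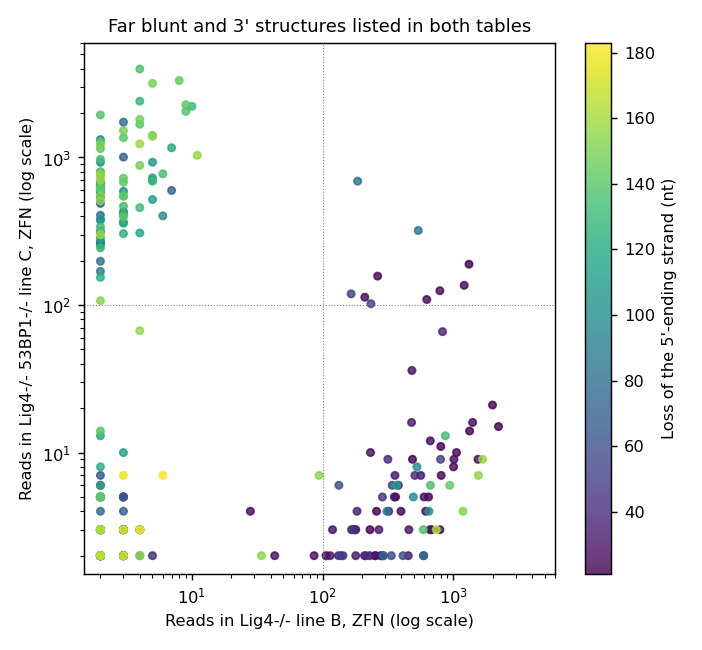
Reads of the 247 far blunt and 3' structures listed in both tables, in Lig4-/- 53BP1-/- line C (vertical, log scale) and Lig4-/- line B (horizontal, log scale), coloured by the loss of the 5'-ending strand (nt). Dotted lines mark 100 reads, and only 10 structures lie in the upper right, 84 having 100 reads or more in Lig4-/- 53BP1-/- cells with under 20 in Lig4-/- cells.

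Few of the abundant far blunt and 3' structures of one line were abundant in the other. Of the 229 far blunt and 3' structures with 100 reads or more in Lig4-/- 53BP1-/- cells, 10 (4.37%) also had 100 reads or more in Lig4-/- cells, which is 6.62% of the 151 such structures of Lig4-/- cells. Over all structures with 100 reads or more, 112 had them in both tables, 15.98% of the 701 in Lig4-/- 53BP1-/- cells and 31.2% of the 359 in Lig4-/- cells. Far 5' overhangs had a share as low as the far blunt and 3' ends in Lig4-/- 53BP1-/- cells, 4.68% (16 of 342), and a higher one in Lig4-/- cells, 42.1% (16 of 38). Among structures with under 21 nt lost, 86 did, 66.2% of the 130 in Lig4-/- 53BP1-/- cells and 50.6% of the 170 in Lig4-/- cells. Of the 151 far blunt and 3' structures of Lig4-/- cells, 59 (39.1%) also had 100 reads or more at the same table position in the Cas9 table of line B, and 63 (41.7%) in that of line A, against 47.1% and 51.5% of all 359 structures. From the other side these are 30.3% of 195 and 28.5% of 221 far blunt and 3' structures with 100 reads or more in the Cas9 tables. Of the 229 structures of Lig4-/- 53BP1-/- cells, 26 (11.4%) had 100 reads or more in the Cas9 table of line B and 28 (12.2%) in that of line A, against 14.7% and 19.3% of all 701 structures. These are 13.3% and 12.7% of the same Cas9 lists. Among the named ends, the 3-nt overhang at 22 nt had 2107 reads in the line B Cas9 table, and the blunt end at 144 nt that led in Lig4-/- 53BP1-/- cells had 2173 there.

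The low share of blunt and 3' ends among far ends in Lig4-/- 53BP1-/- cells was met again in 1 of the 3 tables of RAG breaks in 53BP1-deficient cells, with a second somewhat higher. Counting 21 nt from each break's own reference position, blunt and 3' ends were 29.5% of far reads at the RAG break at Jk1, a joining segment of the immunoglobulin kappa locus, in Lig4-/- 53BP1-/- line B, 39.1% at the recombination substrate in line B, and 59.9% there in line C. In cells lacking Lig4 only, the share was 75.5% and 72.3% at the Cas9 break in lines B and A, 57.5% and 60.7% at Jk1 in lines A and B, and 72.7% and 63.9% at the substrate in lines A and B. The 59.9% of line C at the substrate lies within the range of the cells lacking Lig4 only, whereas the same line had 30.2% at the zinc finger break. Cells lacking Lig4 and the histone variant H2AX had 43.5% and 38.7% at Jk1 in lines 5 and 8, near the 39.1% of 53BP1-deficient line B at the substrate, and 68.2% and 57.1% at the substrate. No difference between breaks or genotypes was tested.

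The blunt share set the zinc finger tables apart from the others in value. The 28.4% blunt among far blunt and 3' reads of Lig4-/- 53BP1-/- cells was the highest, and the 6.07% of Lig4-/- cells the lowest, of the 15 tables for which it was computed, which leave out the KpnI control and the de novo PCR. The nearest values were 24.1% at the Cas9 break in Lig4-/- line B and 7.24% at Jk1 in H2AX-deficient line 5. At the RAG breaks the 53BP1-deficient tables ran from 10.5% to 19.9% blunt. Overhangs of 10 nt or more, 10.98% in Lig4-/- 53BP1-/- cells at the zinc finger break, were 36.1% to 57.6% in the 3 tables of RAG breaks in 53BP1-deficient cells. The tables of RAG breaks in cells lacking Lig4 only had 13.5% to 33.1%, below every 53BP1-deficient RAG table, and H2AX-deficient tables had 20.9% to 41.0%, reaching above the lowest 53BP1-deficient one, whereas at the zinc finger break the 53BP1-deficient table had the lower share.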

How the data were processed

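Genomic DNA ends were captured with a single-stranded DNA ligase, treated with bisulfite, amplified and sequenced as pairs on a MiSeq, per the labels' protocols. The authors deposited, for each group, a table of raw read counts per end structure with a position and an overhang in nt, pooled over 3 libraries in both zinc finger groups. These 2 other columns are whole numbers that no source defines. From their values, the position was taken as the last base of the 5'-ending strand, and position minus overhang as that of the 3'-ending strand. A positive overhang is a 3' overhang, as in the deposited counts of the KpnI control. Neither aligner, read filters nor genome build is stated in the labels or headers, and no coordinates or sequences are printed. The deposited table of Lig4-/- line B also lists structures with 1 read, which the minimum of 2 leaves out. Of the tables, 17 were used and 2 with the same values as others were left out.

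Shares used scipy 1.17.1, numpy 2.4.6 and pandas 2.3.3 under Python 3.11.15, with exact Clopper-Pearson 95% intervals, and plotted with matplotlib 3.10.9. The calculation was tested on simulated data. The structures named were the 5 most abundant of each table, the 3 largest positive and negative differences in share, the most abundant of each class and the longest tail with 100 reads; the structures with 100 reads in both tables, those at the leading stopping points and the zones of loss were chosen after their values were seen. The end structures and the classes were chosen with earlier results of these data known. Alternatives were other read, position and overhang limits, each structure counted once, and leaving out leading structures.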

Additional observations from a re-analysis of the deposited data

Results flagged for a closer look

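Structures with 1 read enter no comparison above, and of the zinc finger tables only that of Lig4-/- line B lists them, so the tables cannot be compared on them. It holds 617, of which 281 are far blunt or 3' ends. Of the 281, 128 are also among the 636 far blunt and 3' structures of Lig4-/- 53BP1-/- line C, and 67 of them have 100 reads or more there. The same counts over all 617 were not computed, so these cannot show anything particular to far blunt and 3' ends.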

How the results depend on the processing

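Differences are Lig4-/- 53BP1-/- line C minus Lig4-/- line B, in points. The share of all reads in far blunt and 3' ends (11.03 points) took the opposite sign with each structure counted once (-3.13) and at position 44 (-1.07). It kept its sign but moved beyond its counting interval at position 64 (15.9), at both strands from position 54 (14.7), at overhangs from -1 nt (15.1) or from 2 nt (0.455), and without the most abundant structure of each table (10.5). The share of far reads (-43.0 points) kept its sign in all alternatives run: each structure once -10.0, 10 reads or more -43.6, position 44 -50.2, position 64 -35.3, both strands -35.9, without the leading structure of the far blunt and 3' ends -42.4 or their leading 10 -39.5, overhangs from -1 nt -39.5 or from 2 nt -47.5, and without the most abundant structure of each table -42.5. So did overhangs of 10 nt or more (-16.6 points): each structure once -9.04, position 44 -4.08, position 64 -29.5, both strands -17.0, without the leading structure -18.0 or the leading 10 -12.8, overhangs from -1 nt -17.6 or from 2 nt -9.82. Chosen after seeing the data were structures with 100 reads or more (11.2 and -44.0 points for the first 2 results), position 74 or more (17.5, -32.8 and -35.2 for the 3 results) and a loss of 160 nt or less (13.2, -50.7 and -10.3). The count of structures at least 2-fold higher (103) was 3 of 24 with 10 reads or more in both tables and stayed within 1.5 times under its other alternatives. The lower count (90 of 247) ran up to 154 of 318 at position 44 and down to 31 of 174 at position 74. It was 17 of 24 with 10 reads or more in both tables. The causes were not tested. No paired analysis was possible because each table pools its libraries and there is 1 table per genotype, and no library could be left out. With 1 table a group, depth limits the counting interval only.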
